A study of Mus musculus with 6 samples.

Results

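The cytosolic ribosomal proteins were compared between *Wnt4*hi and *Wnt4*low islet cells of newborn mice. The members were taken by name from the array, as probes whose RefSeq identifier belongs to a gene called Rpl or Rps plus a number, or to *Rplp0*, *Rplp1*, *Rplp2* or *Rpsa*, without the Rps6k kinases, *Rps19bp1* and numbered pseudogenes. This gave 88 genes on 151 probes, of 45616 features on 56605 probes in all: 54 genes of the large subunit (46 canonical proteins and 8 paralogs or retrocopies) and 34 of the small subunit (31 canonical proteins and 3 paralogs or retrocopies). All genes of a canonical list of ribosomal proteins written under these symbols were found on the array.

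Islets were taken at P1 from *Wnt4eGFPCre; mTmG* pups, which carry a tracer allele that places eGFP and Cre at *Wnt4* and a Cre reporter that switches cells from membrane tdTomato to membrane GFP (mGFP). Islets of 3 or 4 pups were pooled into a sample, and cells were sorted by FACS into mGFP-positive (*Wnt4*hi) and mGFP-negative (*Wnt4*low) cells, so that both groups share the age and the tissue. The series' design text has both sorted from pups of this cross, while the GEO labels name the groups Wnt4pos and Wnt4neg under genotype and a legend in the study's supplement gives the side of the *Wnt4*low cells as *Wnt4eGFPCre Tg-*, so a shared genotype is not settled by these sources. Each population has 3 arrays, which the labels number 2, 3 and 4 for *Wnt4*hi but 1, 3 and 4 for *Wnt4*low; values below follow that order. The gate follows Cre recombination and was not limited to β-cells, so each population is a mixture whose make-up was not fixed by the sort.

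Ribosomal proteins are the protein part of the ribosome, which decodes mRNA on the small subunit and joins amino acids on the large subunit. Most canonical proteins are needed in about equal number. Their mRNAs usually begin with a run of pyrimidines, the 5′ terminal oligopyrimidine (TOP) motif. Through this motif mTOR signalling sets how strongly the mRNA is translated. In β-cells, which make insulin in large amount, ribosome supply is tied to growth and to secretory demand.

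All 6 arrays lay on 1 slide and were scanned together. Between 70.5% and 79.5% of probes were well above background on each array and no spot was saturated. The populations differed in make-up by their markers: 7 of 11 β-cell markers were called higher in *Wnt4*hi and none lower, while 9 of 10 endothelial, 5 of 8 leukocyte, 5 of 8 mesenchymal and 6 of 8 cycling-cell markers were called lower and none higher. Of other endocrine markers 3 of 8 were called higher and 2 lower, and of acinar, duct and erythroid markers 1 of 8, 1 of 6 and 3 of 6 were called lower and none higher. The summed endothelial intensity was 3786 to 5440 in *Wnt4*hi and 31760 to 57594 in *Wnt4*low, the summed β-cell intensity 331298 to 341403 and 191166 to 295897, the summed leukocyte intensity 9385 to 11801 and 17633 to 22067, the summed mesenchymal intensity 31525 to 62420 and 76776 to 85430, and the summed cycling-cell intensity 11137 to 17464 and 20073 to 33495. For other endocrine markers the sums were 97626 to 150177 in *Wnt4*hi and 41801 to 83570 in *Wnt4*low. In the same order, the acinar (6264 to 6540 and 6188 to 24420), duct (8983 to 11415 and 8471 to 16457) and erythroid sums (2889 to 6266 and 5265 to 14301) overlapped. Of all these lists the acinar one held a marker below background on all 6 arrays (1 of 8). The part of these cells in the differences below was not tested, and fewer cells of a type and less RNA per cell cannot be told apart.

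Start-site sequences are given for members on which the results turn, with the share of genes that hold each feature. A table of RefSeq start sites (GRCm38.p6) held 57 of the 77 canonical members, each with 250 bases before and 50 after an annotated start. A run of 8 or more C or T bases within 20 bases of the start was found in 28 of these 57 genes (49.1%), against 18.4% of all 27025 genes of the table. CCGGAAG, the core that ETS factors bind, was found on either strand of the 300 bases in 24 of 57 (42.1%, against 9.93% of all genes), the TATA box TATAAA in 6 (10.5%, against 15.7%) and AAGATGG, part of the site that YY1 binds, in 9 (15.8%, against 7.28%). The windows below run from 40 bases before the start to 20 bases into the transcript, and capitals mark the longest run of C or T within 20 bases of the start, whatever its length, or both runs where 2 are equally long. *Rpl39*, *Rpl28*, *Rps2* and *Rps12* are members called lower in *Wnt4*hi, *Rplp2* and *Rps6* had the highest differences of each subunit, *Rpl7l1* is the paralog called lower, and *Rpl22l1* and *Rps27l* are shown beside the canonical proteins whose paralogs they are.
Rpl39 (chrX:37085203-37085262, minus strand): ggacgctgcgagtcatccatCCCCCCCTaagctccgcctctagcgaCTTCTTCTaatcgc
Rpl28 (chr7:4792925-4792984, plus strand): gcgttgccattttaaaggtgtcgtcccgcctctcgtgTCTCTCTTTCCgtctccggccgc
Rps2 (chr17:24720023-24720082, plus strand): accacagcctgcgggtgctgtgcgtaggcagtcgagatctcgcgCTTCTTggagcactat
Rps12 (chr10:23787190-23787249, minus strand): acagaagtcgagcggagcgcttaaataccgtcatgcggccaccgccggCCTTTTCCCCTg
Rplp2 (chr7:141447611-141447670, plus strand): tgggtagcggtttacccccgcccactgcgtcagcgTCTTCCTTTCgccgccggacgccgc
Rps6 (chr4:86857348-86857407, minus strand): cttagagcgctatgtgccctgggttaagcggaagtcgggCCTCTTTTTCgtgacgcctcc
Rpl7l1 (chr17:46782637-46782696, minus strand): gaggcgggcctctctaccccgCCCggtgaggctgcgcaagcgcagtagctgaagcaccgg
Rpl22 (chr4:152324396-152324455, plus strand): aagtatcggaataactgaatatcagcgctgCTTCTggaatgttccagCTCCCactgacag
Rpl22l1 (chr3:28805468-28805527, plus strand): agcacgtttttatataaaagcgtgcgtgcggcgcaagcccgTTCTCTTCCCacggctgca
Rps27 (chr3:90213629-90213688, minus strand): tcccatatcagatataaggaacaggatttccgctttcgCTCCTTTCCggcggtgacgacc
Rps27l (chr9:66946046-66946105, plus strand): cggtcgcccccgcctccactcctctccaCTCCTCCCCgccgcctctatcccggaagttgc

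In *Rpl28*, *Rplp2*, *Rps6* and *Rps27* the run spans the annotated start, in *Rpl22l1* it begins 1 base after it, and in *Rps12* it begins 8 bases after it. *Rps2* has its longest run, of 6 bases, within the transcript, and *Rpl7l1* has its own, of 3 bases, before the start. *Rpl39* has 2 runs of 8 bases, one before the start, where the edge of the searched stretch ends it, and one that begins 6 bases after the start. *Rpl22* has 2 runs of 5 bases while its paralog has one of 10. *Rpl22* and *Rps27l* have 2 annotated starts each, and the window printed is that of the start with the longer run, or of 1 of them where the runs are equal. These are matches of letters in an annotated window and do not show where transcription starts in these cells.

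The levels below are log2 intensities after background correction and quantile normalization, and a difference is the mean of 3 *Wnt4*hi arrays minus the mean of 3 *Wnt4*low arrays. Genes were called at an unadjusted p below 0.05, the threshold of the study's methods, from a limma fit over all 45616 features, and no member was called after Benjamini-Hochberg adjustment, where 0.438% of all features were (200 features). That number rests on all 6 arrays: it fell to 2 features without *Wnt4*hi replicate 2 and to 0 without any other single array, and was 0 with the fixed replicate block and with the methods' t-test. The question is whether the sorted populations differed in the mRNAs of their ribosomes.

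Differences among ribosomal proteins were small and leaned towards *Wnt4*low. Of the 45 canonical large subunit genes that were above background, 35 were lower and 10 higher in *Wnt4*hi by their mean, with a median of -0.13 over a range from -0.49 to 0.34. Of the 31 canonical small subunit genes, 22 were lower and 9 higher, with a median of -0.11 over a range from -0.58 to 0.49. Over all features the median was 0.07, and over the 3145 features with a mean of 12 or more, the range in which the ribosomal proteins lie, it was 0.11. Among the large subunit genes 3 were called lower (*Rplp1*, *Rpl39* and *Rpl28*) and among the small subunit genes 2 (*Rps2* and *Rps12*), and 0 were called higher in either. Of all features, 5.53% were called lower and 5.02% higher. Of the bright features, 5.09% were called lower and 8.46% higher. The share of ribosomal proteins called lower was thus near the background.

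**Figure D1:**
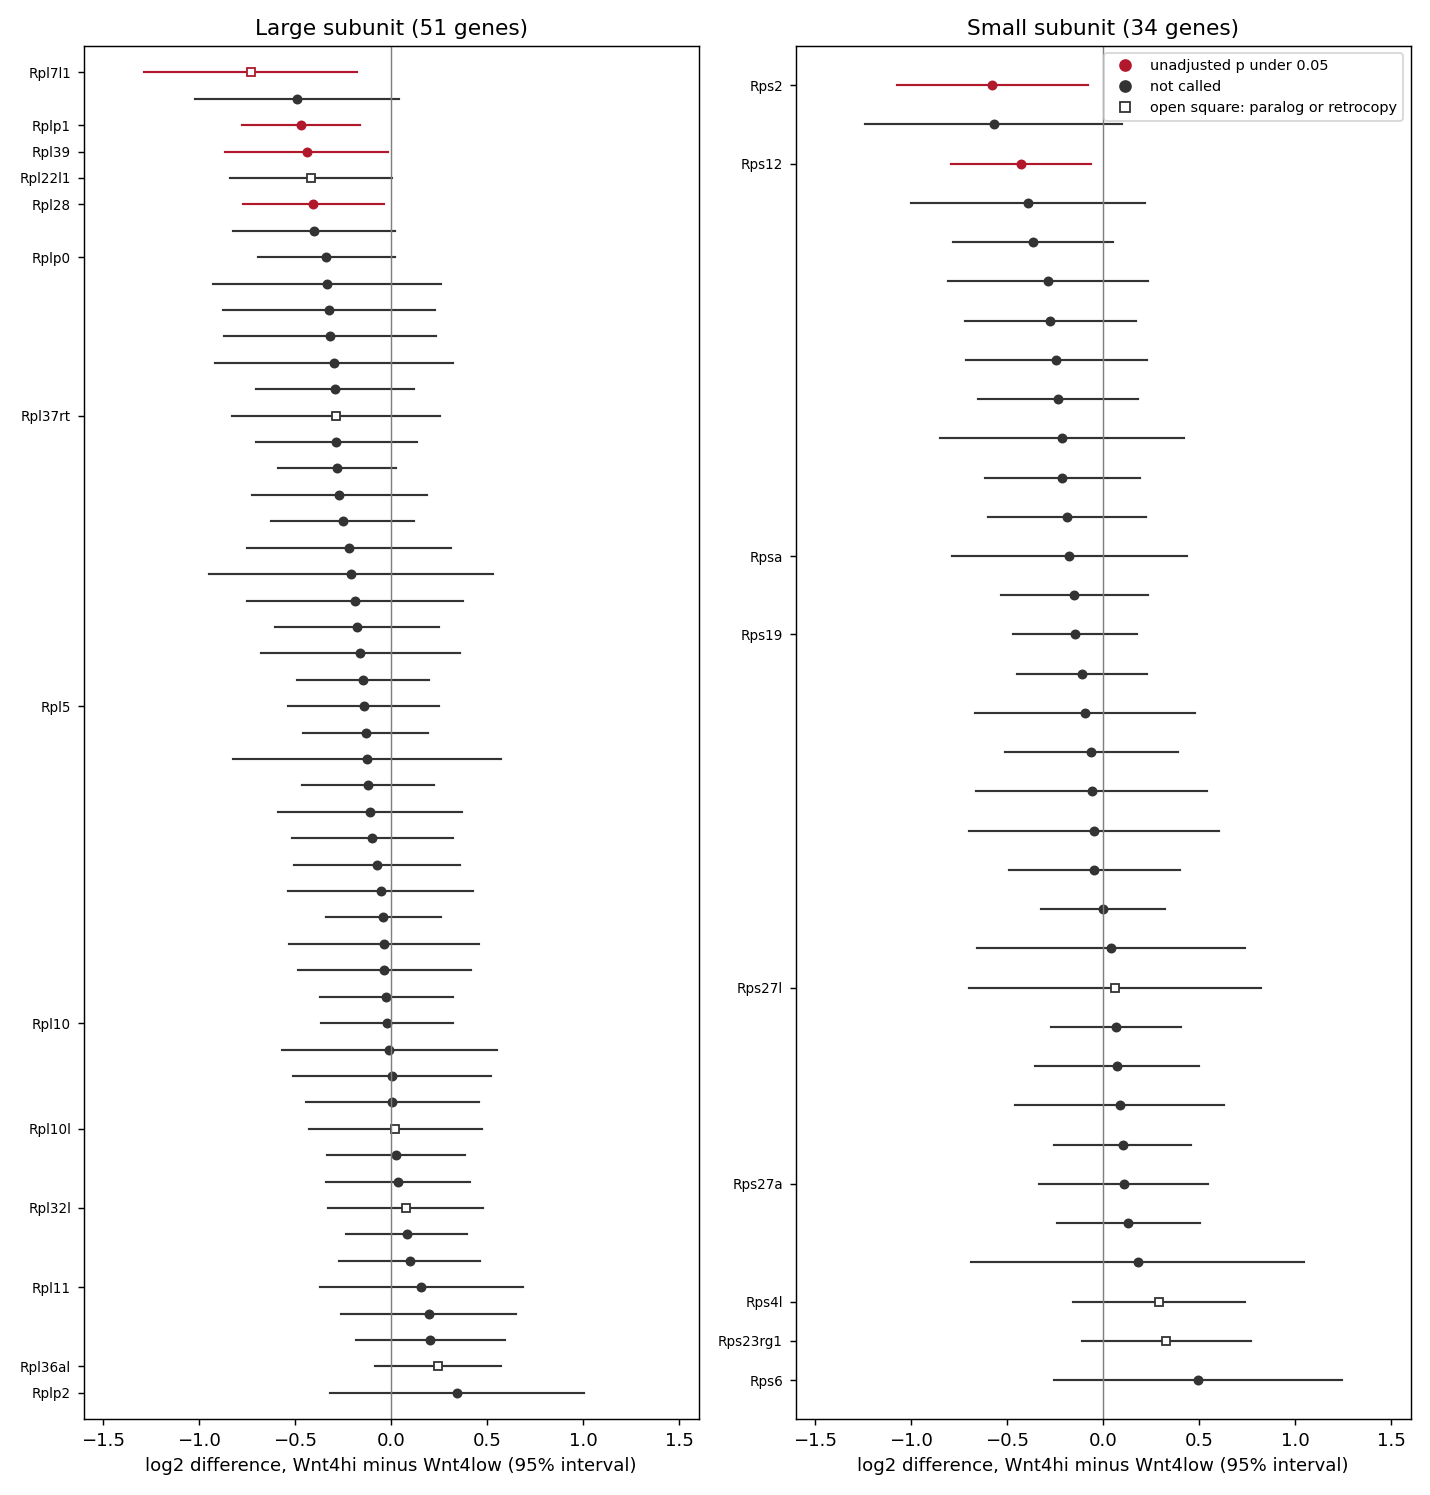
Log2 difference between *Wnt4*hi and *Wnt4*low (mean of 3 arrays each) with its 95% interval for the 85 members above background, large subunit left and small subunit right, ordered by difference; red marks an unadjusted limma p below 0.05 and open squares mark paralogs or retrocopies. Labels are given for the genes that the naming rule selects. Most points lie slightly below 0 and most intervals include it.

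The intervals show how large a difference could have been missed. The 95% interval lay within 1 of 0 on the log2 scale, which leaves out a 2-fold difference, for 43 of 46 canonical large and 27 of 31 canonical small subunit genes, against 67.1% of all features and 75.1% of the bright ones. The exceptions were *Rpl23*, *Rpl37*, *Rplp2*, *Rps2*, *Rps6*, *Rps10* and *Rps18*. The interval lay within a 1.5-fold difference for 19 of 46 canonical large and 11 of 31 canonical small subunit genes. It did so for 15390 of all 45616 features and 786 of the 3145 bright ones. The median residual SD was 0.21 and 0.22 in the large and small subunit and 0.28 over all features.

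By array, the populations were not cleanly apart. Each gene was set against its own mean over the 6 arrays, and the median of these deviations over the 45 large subunit genes was -0.11, -0.12 and 0.06 in *Wnt4*hi and 0.11, 0.07 and -0.03 in *Wnt4*low. *Wnt4*hi replicate 4 thus stood above *Wnt4*low replicate 4 for the large subunit. Over the 31 small subunit genes the medians were -0.10, -0.15 and -0.02 in *Wnt4*hi and 0.16, 0.10 and -0.05 in *Wnt4*low, where the same pair of arrays overlapped. *Wnt4*low replicate 1 was the highest array for 29 of 76 genes and *Wnt4*hi replicate 3 for 1, while *Wnt4*hi replicate 2 was the lowest for 25 and *Wnt4*low replicate 4 for 20. The 3 *Wnt4*hi arrays lay entirely below the 3 *Wnt4*low arrays for 6 of 46 large and 3 of 31 small subunit genes and entirely above for 0 and 1, against 6.44% and 9.56% of all features. With 3 arrays against 3, an exact permutation test of a single gene cannot go below a two-sided p of 0.1.

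**Figure D2:**
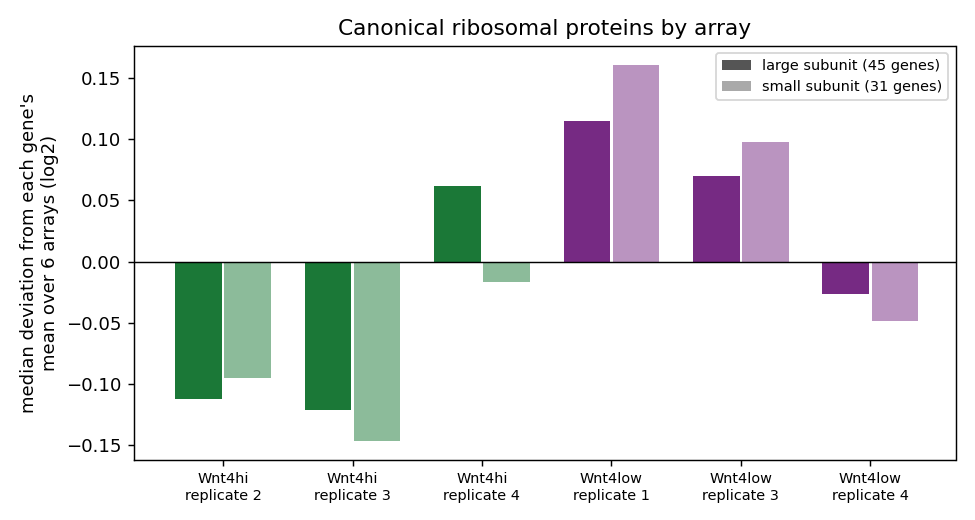
Median deviation, on the log2 scale, of the canonical ribosomal proteins from each gene's own mean over 6 arrays, for each array (dark bars, 45 large subunit genes; light bars, 31 small subunit genes; green, *Wnt4*hi; purple, *Wnt4*low). *Wnt4*hi replicate 4 and *Wnt4*low replicate 4 overlap, the other arrays of the populations do not.

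Among large subunit proteins the acidic stalk, which recruits elongation factors to the ribosome, held both a called decrease and the highest difference. *Rplp1* encodes one of its small acidic proteins and had log2 intensities of 12.24, 12.07 and 12.04 in *Wnt4*hi and 12.64, 12.59 and 12.53 in *Wnt4*low. Every *Wnt4*hi array lay below every *Wnt4*low array, by more than the spread within either population. The difference was -0.47 ± 0.13 (SE, n = 3 arrays each), 0.722 times the *Wnt4*low level (adjusted p = 0.24). A second *Rplp1* probe gave 11.74, 11.79 and 11.72 against 12.59, 12.58 and 12.78, a wider gap in the same direction of -0.90 (adjusted p = 0.063 over all probes).

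*Rplp0*, the scaffold of the stalk, was at 12.31, 12.38 and 12.14 in *Wnt4*hi and 12.74, 12.44 and 12.66 in *Wnt4*low. The arrays did not overlap, and the difference of -0.34 ± 0.15 was not called (adjusted p = 0.50), although it was without *Wnt4*low replicate 3 (-0.42) and with the methods' t-test. *Rplp2*, the partner of *Rplp1*, was at 14.62, 13.57 and 14.07 in *Wnt4*hi and 13.71, 13.85 and 13.67 in *Wnt4*low. Its *Wnt4*hi arrays spanned the *Wnt4*low ones, and the difference of 0.34 ± 0.27 was not called (adjusted p = 0.76). It was 0.08 without *Wnt4*hi replicate 2, and 0.60 and called without *Wnt4*hi replicate 3. The 3 stalk genes thus had measured differences of both signs, and the difference between them was not tested.

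*Rpl39* encodes a small protein in the wall of the exit tunnel through which the new chain leaves. It was at 13.44, 13.67 and 13.98 in *Wnt4*hi and 14.03, 14.20 and 14.17 in *Wnt4*low. *Wnt4*hi replicate 4 lay just under the lowest *Wnt4*low array, without overlap. The difference was -0.44 ± 0.17 (adjusted p = 0.45). All 5 of its probes were lower in *Wnt4*hi, from -0.23 to -0.69, and 4 of them were called. The call of the probe that stands for the gene was lost without any array other than *Wnt4*hi replicate 4, at -0.49 to -0.31. *Rpl28* was at 14.29, 14.08 and 14.00 in *Wnt4*hi and 14.59, 14.65 and 14.35 in *Wnt4*low. It had a single probe and again no overlap, with a difference of -0.40 ± 0.15 (adjusted p = 0.42), which was no longer called without *Wnt4*hi replicate 3 or 4 or *Wnt4*low replicate 1 or 3, at -0.38 to -0.34.

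**Figure D3:**
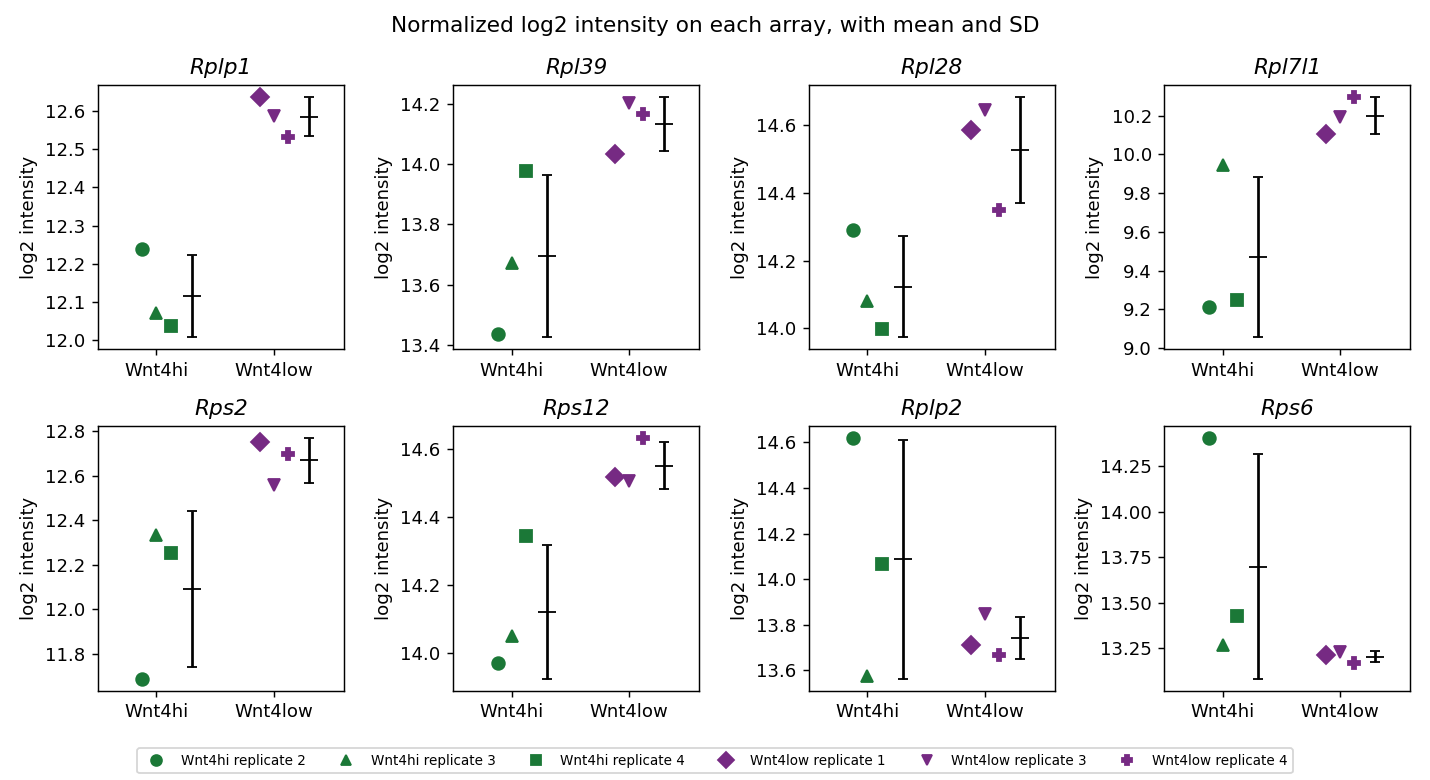
Normalized log2 intensity of the 6 members called lower in *Wnt4*hi and of *Rplp2* and *Rps6*, 1 symbol per array, with the mean and SD of each population beside the points; the axes do not start at 0 and differ between panels. The arrays of the 6 called genes do not overlap, and *Wnt4*hi replicate 2 is the high point for *Rplp2* and *Rps6*.

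*Rpl23* had the lowest difference among the canonical large subunit genes above background that were not called, with 13.70, 14.02 and 14.39 in *Wnt4*hi and 14.30, 14.59 and 14.70 in *Wnt4*low, and the populations overlapped (-0.49 ± 0.22, adjusted p = 0.52). It was -0.32 without *Wnt4*hi replicate 2, and was called without *Wnt4*hi replicate 4 (-0.67), with median centring (-0.60) and in the authors' value table (-0.43). *Rpl23*, *Rps10*, *Rps18*, *Fau*, and *Rpl7*, *Rpl22* and *Rpl36a* as partners of paralogs, fall outside the naming rule and were chosen after their values were seen.

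*Rpl5* and *Rpl11*, which carry ribosomal RNA into the large subunit and, when free, bind Mdm2 and so stabilise p53, were not called. *Rpl5* was at 12.21, 12.42 and 12.64 in *Wnt4*hi and 12.58, 12.67 and 12.44 in *Wnt4*low (-0.14 ± 0.16, adjusted p = 0.84). *Rpl11* was at 13.18, 13.27 and 12.98 against 13.31, 13.06 and 12.58 (0.16 ± 0.22, adjusted p = 0.87). *Rpl10*, which joins late in assembly and completes the catalytic site's surroundings, was at 14.50, 14.61 and 14.72 against 14.51, 14.79 and 14.60. All 3 overlapped between populations, and the 95% interval of *Rpl10* ran from -0.37 to 0.32.

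Among small subunit proteins the lowest difference was that of *Rps2*, a protein near the mRNA entry channel. It was at 11.69, 12.33 and 12.25 in *Wnt4*hi and 12.75, 12.56 and 12.70 in *Wnt4*low. *Wnt4*hi replicate 2 stood well below the rest, and the remaining arrays kept the order without overlap. The difference was -0.58 ± 0.20, 0.671 times the *Wnt4*low level (adjusted p = 0.39). The call was lost without *Wnt4*hi replicate 2 (-0.38) and without *Wnt4*low replicate 1 or 4 (-0.54 and -0.56). Its second probe gave -0.36 (adjusted p = 0.73).

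*Rps12* was at 13.97, 14.05 and 14.34 in *Wnt4*hi and 14.52, 14.50 and 14.63 in *Wnt4*low. The arrays did not overlap and the difference was -0.43 ± 0.15 (adjusted p = 0.38), and the call was lost without any array other than *Wnt4*hi replicate 4, at -0.45 to -0.35. *Rps10* had a difference of similar size (-0.57 ± 0.27, adjusted p = 0.56) that its second probe did not show (0.04). It was -0.29 without *Wnt4*hi replicate 2, and was called without *Wnt4*hi replicate 4 (-0.77) and with median centring (-0.70).

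*Rps6*, the protein that S6 kinases phosphorylate downstream of mTOR, had the highest difference of all members. It was at 14.40, 13.27 and 13.42 in *Wnt4*hi and 13.22, 13.23 and 13.17 in *Wnt4*low. All *Wnt4*hi arrays were above all *Wnt4*low arrays, but *Wnt4*hi replicate 2 stood far above every other array and the remaining 5 were close together. The difference was 0.49 ± 0.31 (adjusted p = 0.69) and 0.14 without that array. The second probe showed the same high array, at 13.95 against 12.94 to 13.35 on the others.

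The remaining small subunit genes singled out here were not called. *Rpsa*, which doubles as a laminin receptor, was at 12.97, 12.73 and 12.75 in *Wnt4*hi and 13.50, 12.87 and 12.60 in *Wnt4*low (-0.18 ± 0.25, adjusted p = 0.88). *Rps19*, the gene most often mutated in Diamond-Blackfan anaemia, was at 13.34, 13.07 and 13.18 against 13.40, 13.30 and 13.32 (-0.15 ± 0.13, adjusted p = 0.79). *Rps27a*, made as a fusion with ubiquitin, was at 13.73, 13.51 and 13.73 against 13.69, 13.73 and 13.23 (0.11 ± 0.18, adjusted p = 0.90). The populations overlapped in each, and the widest of the 3 intervals, that of *Rpsa*, ran from -0.79 to 0.44.

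Most genes were read by more than 1 probe. Of 47 members with 2 or more probes above background on all arrays, 28 had all probes lower in *Wnt4*hi, 6 had all probes higher and 13 had probes of both signs. The probes of a gene differed by 0.17 at the median and by at most 0.61 (*Rps10*), so that many single differences are no larger than the disagreement between probes. *Rplp1* was the only gene with every such probe called. In *Rps18* the probes ran from -0.34 to 0.18. Many members also have near-identical processed copies in the genome: the RefSeq table names 24 numbered pseudogenes for *Rpl31*, 23 for *Rps12* and 12 for *Rps2*. How much of their signal such copies add was not tested.

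Among the 11 paralogs and retrocopies, 6 were higher and 3 lower in *Wnt4*hi by their mean, and 2 were below background. *Rpl7l1*, a relative of *Rpl7* that takes part in ribosome assembly, was the only one of them called. It was at 9.21, 9.95 and 9.25 in *Wnt4*hi and 10.11, 10.20 and 10.30 in *Wnt4*low. No array overlapped, and the difference was -0.73 ± 0.23, the lowest of all 85 members above background (adjusted p = 0.32). The call was lost without *Wnt4*hi replicate 2 or 4 or *Wnt4*low replicate 4, at -0.68 to -0.60. *Rpl7* itself had a smaller difference of -0.28 ± 0.13 without overlap (adjusted p = 0.52). It was called with the processed signal (-0.48), median centring (-0.39), cyclic loess (-0.32) and the methods' t-test.

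*Rpl22l1*, the paralog that can replace *Rpl22*, was at 11.33, 11.46 and 11.55 in *Wnt4*hi and 11.68, 11.74 and 12.16 in *Wnt4*low. The populations did not overlap, at a difference of -0.42 ± 0.17 (adjusted p = 0.48; called at -0.51 without *Wnt4*low replicate 1 and in 4 other alternatives), beside -0.21 ± 0.30 for *Rpl22* (adjusted p = 0.88). *Rpl36al* was higher on every *Wnt4*hi array, at 13.21, 13.42 and 13.47 against 13.05, 13.14 and 13.19 (0.24 ± 0.14, adjusted p = 0.63), beside -0.25 ± 0.15 for *Rpl36a* (adjusted p = 0.67), which was called without *Wnt4*low replicate 3 (-0.38) and in the authors' value table (-0.43). The 2 members of these pairs were not tested against each other.

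*Rps27l*, a p53-responsive relative of *Rps27*, ranged from 10.24 to 11.14 in *Wnt4*hi and from 10.34 to 11.16 in *Wnt4*low (0.06 ± 0.31, adjusted p = 0.97). *Rps4l* and *Rps23rg1* had differences of 0.29 ± 0.18 (adjusted p = 0.69) and 0.33 ± 0.18 (adjusted p = 0.63), *Rpl32l* and *Rpl10l* of 0.08 ± 0.17 (adjusted p = 0.92) and 0.02 ± 0.19 (adjusted p = 0.98), all with overlap. *Rps23rg1* was called without *Wnt4*low replicate 3 (0.47). *Rpl37rt* was at 14.20, 14.56 and 14.41 against 15.08, 14.35 and 14.61 (-0.29 ± 0.22, adjusted p = 0.76). *Rpl37* itself was well above background on 0 of 6 arrays while the probe of this retrocopy was so on all 6. *Rpl37* was read by 1 probe, and 76 of the 77 canonical members were above background on all 6 arrays. Whether its probe fails, or the probe of *Rpl37rt* reads *Rpl37* mRNA, was not tested. The muscle paralog *Rpl3l* and *Rpl39l* were also above background on 0 arrays. No difference is given for *Rpl37*, *Rpl3l* or *Rpl39l*.

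*Fau*, which encodes a ribosomal protein as a fusion to a ubiquitin-like protein, was not called and overlapped between populations (-0.27 ± 0.25, adjusted p = 0.80). With the pyrimidine run in view, the 28 canonical genes with a run of 8 or more bases had a median difference of -0.04 and the 28 above background without one had -0.16, with 18 and 24 of them lower. The 21 other mRNAs known to start with a TOP motif, mainly translation factors and with *Fau* among them, had 0 called genes and a median of -0.09.

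The genes that make ribosomes showed few differences as lists. Counts called in this and the following lists stand beside 5.53% of all features called lower and 5.02% higher. Of 12 measured RNA polymerase I genes 0 were called (median -0.03), of 40 large subunit assembly factors 0 were called (median -0.07), and of 46 factors of small subunit assembly and ribosomal RNA modification 3 were called lower and 0 higher (median -0.07). *Nhp2*, a core protein of the box H/ACA particles that make pseudouridine, was at 7.26, 7.89 and 8.92 in *Wnt4*hi and 10.21, 9.53 and 10.09 in *Wnt4*low (-1.92 ± 0.44, adjusted p = 0.17). In *Wnt4*hi, 2 of 3 arrays measured it above background. *Utp23* was well above background on 0 of 3 *Wnt4*hi arrays, so its level there is given as a bound, lower by at least 2.60-fold, and it was the only gene of these lists called after adjustment (limma, adjusted p = 0.035), a call that rests on the full set of arrays as said above. In the authors' value table its difference was -0.99 and not called. The bound sets its 8.99, 8.40 and 8.74 in *Wnt4*low against the lowest values that count as above background. *Utp11* was at 10.03, 10.05 and 10.40 against 11.03, 10.70 and 10.73 (-0.66 ± 0.17, adjusted p = 0.22).

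**Figure D4:**
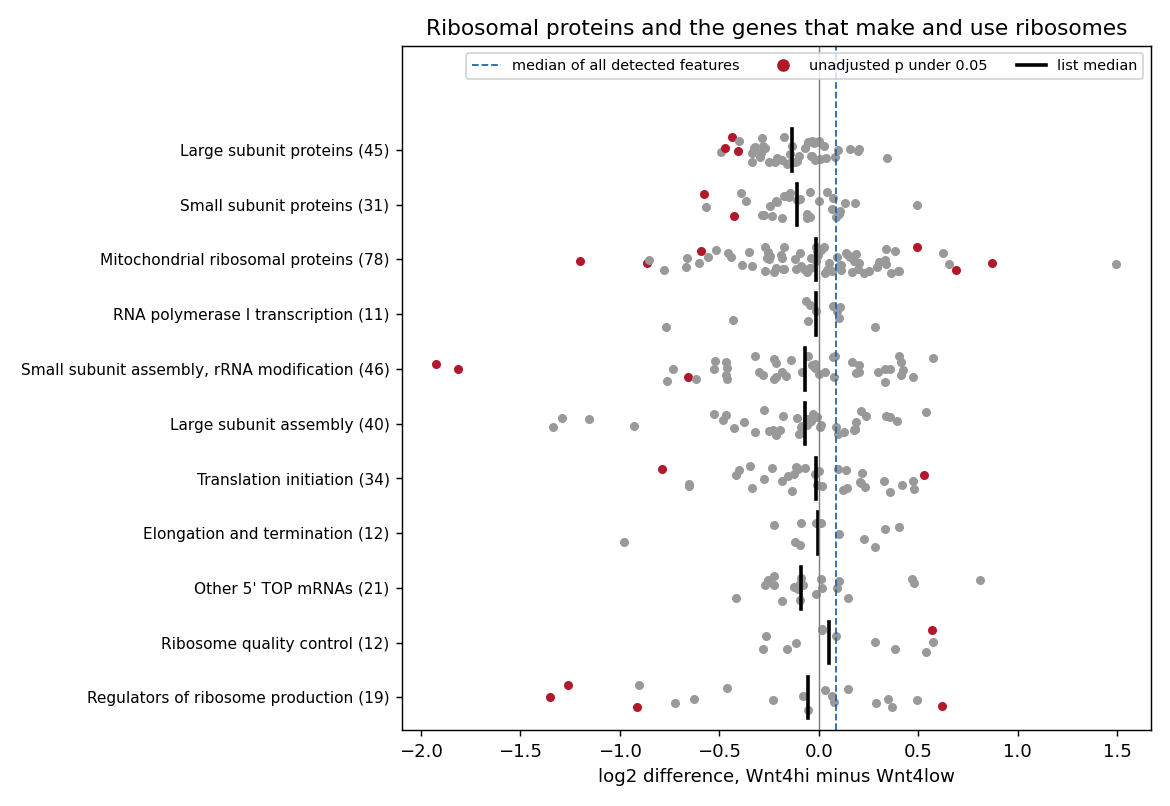
Log2 difference, *Wnt4*hi minus *Wnt4*low, of each gene above background in the canonical ribosomal proteins and in lists of genes that make, use or control ribosomes (number of genes in brackets; vertical positions within a row are scattered for legibility). Red points have an unadjusted limma p below 0.05, black bars are list medians and the dashed line is the median of all features above background; ribosomal proteins scatter less than the assembly factors or the mitochondrial ribosomal proteins.

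The genes that use ribosomes were also spread around 0. Of 34 initiation factors 1 was called higher, *Eif4a2*, an RNA helicase of the cap-binding complex (13.91, 14.05 and 14.03 against 13.16, 13.59 and 13.66, 0.53 ± 0.17, adjusted p = 0.34), and 1 lower, *Eif2b4*, a subunit of the exchange factor for eIF2 (-0.79 ± 0.31, adjusted p = 0.45). Of 12 elongation and termination factors 0 were called. Of 12 ribosome quality control genes 1 was called higher, *Edf1*, which senses collided ribosomes (12.60, 12.24 and 12.47 against 12.03, 11.93 and 11.64, 0.57 ± 0.17, adjusted p = 0.29). These calls were lost when 1 array was dropped: *Eif4a2* was lost without *Wnt4*hi replicate 3 or 4 (0.50 and 0.51), *Edf1* without *Wnt4*hi replicate 2 (0.49), and *Eif2b4* without *Wnt4*hi replicate 2 or 3 or *Wnt4*low replicate 3 or 4 (from -0.91 to -0.49). The calls of *Eif4a2* and *Edf1* were also lost with the processed signal (0.35 and 0.38) and median centring (0.38 and 0.50). The fixed replicate block (0.41 and 0.57) and the mean of all probes (0.31 and 0.30) lost them too. The call of *Edf1* was also lost in the authors' value table (0.24). That of *Eif2b4* was lost with the processed signal (-0.83). *Eif2b4* was called in 14 of 20 alternatives, which ran from -0.97 to -0.46.

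Of 19 regulators of ribosome production 3 were called lower and 1 higher, where 5.53% and 5.02% of all features were. The called differences of over 2-fold were those of *Myc* and *Trp53*. *Myc*, the transcription factor that drives ribosome production, was at 10.82, 11.29 and 11.40 in *Wnt4*hi and 12.84, 12.32 and 12.12 in *Wnt4*low, without overlap (-1.26 ± 0.25, adjusted p = 0.13). *Trp53*, which encodes p53, was at 10.19, 11.21 and 9.52 against 11.40, 11.60 and 11.98 (-1.35 ± 0.43, adjusted p = 0.33). Its call was lost without *Wnt4*hi replicate 2 (-1.29) or *Wnt4*low replicate 4 (-1.19). *Eef2k*, the kinase that slows elongation, was at 11.32, 11.18 and 10.62 against 11.73, 12.20 and 11.91 (-0.91 ± 0.23, adjusted p = 0.22). That value depends on the probe, since the mean of all its probes gave -0.25, which was not called. The 1 gene higher was *Mlst8*, a subunit of mTOR complexes (0.62 ± 0.25, adjusted p = 0.47), named although it falls outside the naming rule. It was called in 6 of 20 alternatives and was at 0.29 in the authors' value table.

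The mitochondrial ribosomal proteins, which share the task but not the genes, varied more within populations than the cytosolic ones. Of 78 measured genes 3 were called in each direction, with a median of -0.01, where 5.53% of all features were called lower and 5.02% higher. The lowest called gene was *Mrps6*, at 8.46, 8.51 and 9.05 in *Wnt4*hi and 10.35, 10.02 and 9.26 in *Wnt4*low (-1.20 ± 0.32, adjusted p = 0.24). *Mrpl50* was called higher (0.87 ± 0.24, adjusted p = 0.25) and *Mrpl52* lower (-0.86 ± 0.35, adjusted p = 0.47), a call lost without *Wnt4*hi replicate 2 or 3 or *Wnt4*low replicate 1 or 4 (-0.89 to -0.55). In the authors' value table *Mrps6* was at -0.73 and *Mrpl50* at 0.47, neither called. Their median residual SD was 0.40 against 0.21 and 0.22 in the cytosolic subunits. They were also dimmer. In *Wnt4*hi the 78 genes summed to 140122 to 162397, against 994190 to 1089412 for the 77 canonical cytosolic genes. The part of intensity in this spread was not tested.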

How the data were processed

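The authors sorted P1 islet cells by mGFP, amplified the RNA and hybridised 1 single-colour (Cy5) Agilent mouse array per sample. They deposited the scanner output of each array, whose columns hold the median intensity of every spot and of its local background, not normalized (Feature Extraction 9.1 per the submitters' processing notes), and normalized log2 values of all arrays in 1 table, which served as an alternative here.

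The intensity values were background-corrected with normexp at an offset of 50 and log2 values were quantile normalized, with spots marked as outliers or not uniform left out. The probe with the highest mean stood for a gene. Populations were compared with lmFit and eBayes in limma (version 3.58.1, R 4.3.3) with no covariate, p-values were adjusted by Benjamini-Hochberg over all 45616 features, and the calculation was tested on simulated data. Calls are at an unadjusted p below 0.05, and the p-values printed are adjusted ones. Of 35886 probes with a RefSeq name, 32989 matched the RefSeq table (GRCm38.p6), used for names and start sites. No source says that the 3 samples of a population came from separate litters, so p-values measure the spread between these samples. Per array, the ratio of median intensity to median background ran from 10.8 to 15.6, and precision is limited by having 3 arrays a population. The alternatives changed background, normalization, filter, probe choice, variance model, test, values and the replicate block, or dropped 1 array at a time.

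The members, gene lists and tests were chosen with earlier results of these data known. Genes were named by rule: the 6 canonical members of each subunit with the largest called differences in each direction, all paralogs and retrocopies, *Rplp0*, *Rplp1*, *Rplp2*, *Rpsa*, *Rps6*, *Rps19*, *Rps27a*, *Rpl5*, *Rpl11* and *Rpl10*, and the 3 largest called differences of each other list, while others are marked in the text as chosen afterwards. Some single genes are not reported here.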

Additional observations from a re-analysis of the deposited data

How the results depend on the processing

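The median difference was below 0 for both subunits under all 20 alternatives, from -0.26 to -0.09 for the large and from -0.26 to -0.07 for the small subunit, while counts of called genes, all at the unadjusted threshold, moved with most settings. It widened to -0.26 (large) and -0.26 (small) with the processed signal and to -0.26 and -0.23 with median centring. Genes called lower numbered, large then small, 3 and 1 with the processed signal, 5 and 3 with median centring, 1 and 1 with the filter on dim probes, 5 and 2 with trend and robust estimation, 4 and 1 with the methods' t-test, and 5 and 4 in the authors' value table. In that table the column of *Wnt4*hi replicate 2 correlated at only 0.27 with its scanner array, against 0.84 to 0.87 for the others, so it may hold other values. Leaving out 1 array each gave 1 to 4 (large) and 0 to 4 (small) called lower, 0 to 1 (large) and 0 (small) called higher, and medians from -0.21 to -0.10 (large) and from -0.21 to -0.071 (small).

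The populations share replicate numbers 3 and 4, with 4 and 3 pups pooled in each population. Whether these are the same pools is not stated by the labels. Their deviations correlated at -0.03 and 0.16, which with 3 arrays a population cannot settle it. The reported fit treats the arrays as unpaired. With the replicate block, fixed, 1 large and 0 small subunit genes were called lower, the former *Rpl37*, which is below background. That block rests on replicates 3 and 4, since numbers 1 and 2 each occur in 1 population. It leaves few arrays to measure the spread, so calls can be lost through the design alone. Of the 5 canonical genes called, *Rplp1* kept its call in every alternative except that block (-0.51). *Rpl39* was called in 10, *Rps12* in 12 and *Rpl7l1* in 16 of 20 alternatives, and *Rpl28* in 9 and *Rps2* in 13 of 19. With the probe of smallest p, *Rplp1* was the 1 member called after adjustment. That setting chooses each gene's probe by its p in these same data. Its adjustment does not count this choice, so the call is not evidence of a difference after adjustment. With adjustment over all probes, the same *Rplp1* probe was not called. Of the 35 genes that the naming rule selects, 10 changed sign in 1 to 5 alternatives, among them *Rpl10*, *Rpl11*, *Rplp2*, *Rps6*, *Rps27a*, *Rps27l* and *Rpsa*; none of the 10 was called in the reported fit, so these were not counted as reversals and their signs are not settled. Of the 13 genes named outside the rule, *Fau*, *Rpl22*, *Rps18* and *Rps6kb2* changed sign in 1 to 3 alternatives, again with no call. The causes were not tested. Of 88 members, 3 were not well above background on any array, so their differences are not given.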

Other observations

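The Rps6k genes, which the rule for members left out, encode kinases. Of the 10 measured genes of the S6 kinase family 2 were called lower and 1 higher, where 5.53% and 5.02% of all features were. *Rps6ka1* and *Rps6ka4*, which act downstream of MAP kinases, were lower in *Wnt4*hi, without overlap. *Rps6ka1* was at 9.01, 8.91 and 8.69 in *Wnt4*hi and 10.04, 9.45 and 9.45 in *Wnt4*low (-0.77 ± 0.21, adjusted p = 0.24). *Rps6ka4* was at 7.78, 7.99 and 7.99 against 8.76, 8.40 and 9.07 (-0.82 ± 0.20, adjusted p = 0.20). *Rps6kb1*, the kinase that phosphorylates Rps6 downstream of mTOR, overlapped between populations (-0.23 ± 0.23, adjusted p = 0.82), as did *Rps6kb2* (0.03 ± 0.42, adjusted p = 0.99). The value of *Rps6kb1* depends on the probe and the array, at -0.58 for the mean of all probes, -0.94 for the probe of smallest p and -0.44 to -0.03 with 1 array left out, and was called in none of these. *Rps6kl1* was the 1 member of the family called higher (0.99 ± 0.36, adjusted p = 0.40), with overlap of the arrays. With 1 array left out, *Rps6ka1* (-0.87 to -0.58) and *Rps6ka4* (-0.99 to -0.66) were called each time, while *Rps6kl1* (0.77 to 1.29) was called without *Wnt4*hi replicate 3 or *Wnt4*low replicate 1 and in no other case. *Rps6ka4* was not called in the authors' value table (-0.53). These genes were chosen after their values were seen.

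The probes annotated to 3 numbered pseudogenes, all that were found on the array, were above background on all 6 arrays. Whether they read the pseudogenes or the mRNAs of the parent genes was not tested. The probe of *Rpl31-ps12* was at 13.22 to 13.48 in *Wnt4*hi and 13.33 to 13.60 in *Wnt4*low, and that of *Rpl34-ps1* at 12.56 to 12.86 and 12.56 to 12.79, while that of *Rps15a-ps6* was dimmer, at 9.08 to 10.02 and 8.80 to 9.48. None of the 3 was called.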
